A study of Mus musculus with 6 samples.

Results

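The genes described here are the nuclear-encoded subunits of the mitochondrial respiratory chain and ATP synthase. They were chosen by symbol, as Nduf, Sdh, Uqcr, Cox or Atp5 genes without pseudogene names, which gave 84 of the 24062 genes in the count tables. By stem these are 37 genes of complex I, 4 of complex II, 8 of complex III, 18 of complex IV and 17 of complex V. The symbol rule uses no measured value, but it was chosen with earlier results of these data known. The symbols do not take in every subunit. Cyc1, Ndufab1, Usmg5 and 2010107E04Rik fall outside them, while Atp5s and Atp5sl, which are accessory or assembly factors, fall inside. Ndufa4 is counted here with complex I by its name, although its protein is now placed in complex IV.

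The series asked how the stiffness of the culture substrate alters transcription in mouse marrow cultures made for dendritic cells, and its title points to metabolism. Marrow of C57BL/6J mice was grown with GM-CSF at 20 ng/ml and fed again on days 3, 6 and 10. The stiff cultures, labelled high tension, stood on 50 kPa substrates and the soft ones, labelled low tension, on 2 kPa substrates, with 3 polyA RNA libraries each. Strain, cytokine and feeding were shared by both groups. The labels name no cell sort, so each value averages over all cells of a culture. Nor do they state separate animals or cultures for the replicates, so p-values measure the spread between these 6 samples alone, possibly a technical one. Where stiff or soft cultures are counted below, the count is of libraries.

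As background, the respiratory chain moves electrons from NADH and succinate to oxygen and pumps protons across the inner mitochondrial membrane, and ATP synthase uses that gradient to make ATP. Complex I (NADH dehydrogenase), complex III (cytochrome bc1) and complex IV (cytochrome c oxidase) pump protons, and complex II (succinate dehydrogenase) feeds electrons in from the citric acid cycle. Several catalytic subunits are encoded by mitochondrial DNA and are not among the genes chosen here. In dendritic cells and macrophages, activation by microbial products is known to shift energy supply from respiration towards glycolysis.

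Total counts per library ranged over 33.83 M to 36.27 M and TMM scaling factors over 0.927 to 1.16. Levels are counts per M of the scaled library (CPM), and log2 fold changes are 50 kPa over 2 kPa with their standard errors. All 11 listed dendritic cell markers were detected, with sums of 15159 to 23146 CPM at 50 kPa and 6342 to 12461 CPM at 2 kPa. They did not go one way: 5 had positive and 6 negative fold changes (median -0.36), and most of the sum came from Cd74, H2-Aa, H2-Ab1 and Itgax. By edgeR 0 were called and 9 had an unadjusted p under 0.05, 4 higher (those 4 genes) and 5 lower (Flt3, Dpp4, Cd24a, Cd86 and Ccr7), and DESeq2 called the same number, 9. Itgax, which encodes CD11c, averaged 2399 ± 857 CPM at 50 kPa and 801 ± 439 CPM at 2 kPa (SD, n = 3 each). Markers of other cells differed between the groups. The summed level of 11 neutrophil markers was 824 to 1448 CPM at 50 kPa and 3588 to 7015 CPM at 2 kPa, with 6 called lower. For 8 B cell markers the sums were 23.3 to 101 CPM and 844 to 1362 CPM in the same order, with 7 called lower, and for 6 basophil and mast cell markers 31.5 to 108 CPM and 176 to 625 CPM, with 0 called by edgeR, 6 at an unadjusted p under 0.05 and 6 called by DESeq2. For 5 megakaryocyte markers they were 75.9 to 239 CPM and 211 to 368 CPM, with 4 called lower. The sums of 10 macrophage markers were 4825 to 5914 CPM at 50 kPa and 1698 to 3795 CPM at 2 kPa, with 0 called by edgeR, 6 at an unadjusted p under 0.05, all higher, and 5 called by DESeq2. Over all genes tested, edgeR called 1.47% higher and 1.98% lower, 27.8% had an unadjusted edgeR p under 0.05, and DESeq2 called 18.0%. No marker of these lists was at 0 in all libraries. The part of cell composition in the results below was not tested.

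Most respiratory chain genes were at nearly the same level on both substrates. Of the 84 genes 81 had counts and passed the filter on low counts, and Cox7b2, Cox8b and Cox8c, subunit isoforms known from testis or muscle, had 0 counts in every library, which allows up to 0.072 to 0.0933 CPM per library. By edgeR's quasi-likelihood test 2 of the 81 were called higher at 50 kPa and 0 lower at an adjusted p under 0.05, beside 3.45% of all 13155 genes tested (1.47% higher and 1.98% lower). The 2 genes were Cox7a2l and Cox6a2, both of complex IV. An unadjusted p under 0.05 was reached by 11 of the 81, 5 higher and 6 lower, beside 27.8% of all genes (13.0% higher and 14.8% lower). DESeq2 called 5 of the 81, beside 18.0% of all genes.

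The median log2 fold change of the 81 genes was 0.03, beside -0.03 for all genes tested, and 67 of the 81 lay within 0.25 of 0. Their median size of change regardless of sign was 0.099, beside 0.265 for all genes and 0.207 for the 8823 genes of at least 10 CPM, a level reached by 74 of the 81. In 13 of 81 genes (16.0%) the stiff and soft cultures did not overlap, 6 higher and 7 lower, beside 34.1% of all genes (17.2% higher and 16.9% lower). With total counts as the scaling the median of all genes moved to -0.16 and that of the 81 to -0.11, so the sign of a change this small depends on the scaling. The median of the 81 was above that of all genes in both scalings. In bulk RNA, fewer cells of a type and less RNA per cell cannot be told apart.

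**Figure D1:**
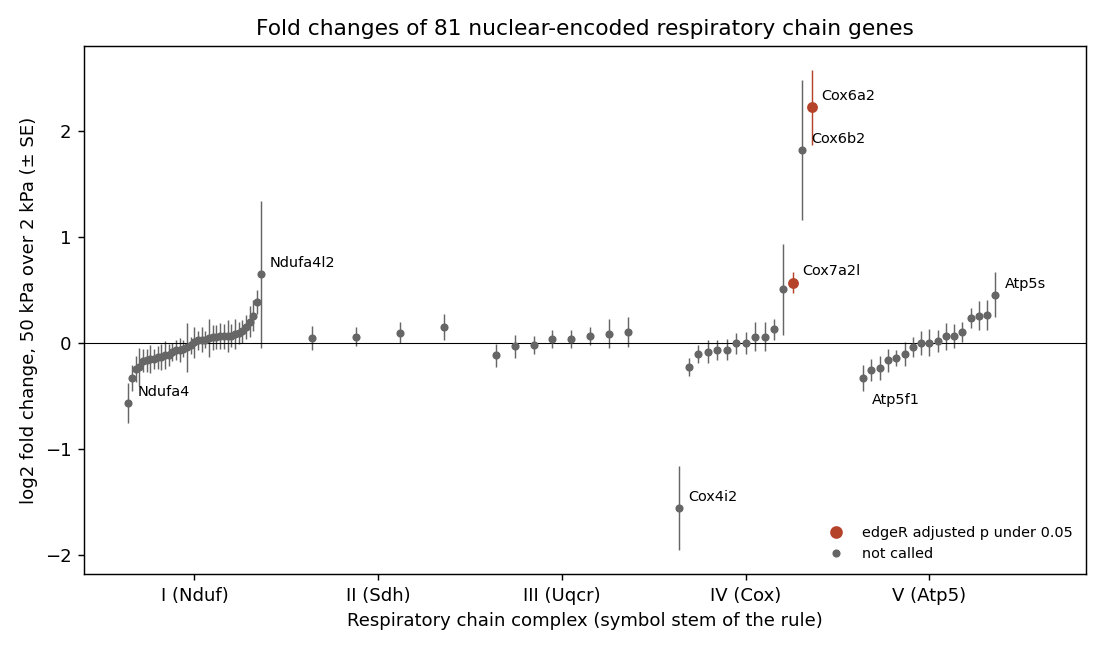
Log2 fold change, 50 kPa over 2 kPa, of the 81 respiratory chain genes tested, sorted by value within each complex, with bars of 1 SE from edgeR. Cox6a2 and Cox7a2l are the 2 called genes, and 67 genes lie within 0.25 of 0.

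No complex I gene was called. None of the 37 passed the test at an adjusted p under 0.05 by edgeR, 3 had an unadjusted p under 0.05, and DESeq2 called 1. Fold changes ran from -0.56 to 0.65, with 19 positive and 18 negative and a median of 0.01. The ends were Ndufa4 and its paralogue Ndufa4l2, both placed here by name only. The other genes of the stem ran from -0.33 (Ndufs4) to 0.39 (Ndufa6). Ndufs1, Ndufs3, Ndufs7, Ndufs8, Ndufv1 and Ndufv2, core subunits that carry flavin or iron-sulphur centres or form their scaffold, lay between -0.16 and 0.20. Ndufs1, the large iron-sulphur subunit, averaged 74.3 ± 2.97 CPM at 50 kPa and 72.5 ± 3.25 CPM at 2 kPa (SD, n = 3 each).

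The complex I gene with the smallest p was Ndufa6, an accessory subunit of the LYR motif family that binds acyl carrier protein. It measured 57.2, 51.3 and 50.5 CPM at 50 kPa, against 44.5, 40.9 and 35.7 CPM at 2 kPa. Every 50 kPa library was above every 2 kPa library. Its log2 fold change was 0.39 ± 0.11, with an edgeR adjusted p of 0.0945, and DESeq2 gave an adjusted p of 0.0193.

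Ndufa4 had the most negative value of the stem. It measured 30.6, 28.9 and 27.1 CPM at 50 kPa, against 39.6, 54.7 and 33.3 CPM at 2 kPa. All 3 stiff cultures were below the soft ones, whose replicate 2 was the highest. The log2 fold change was -0.56 ± 0.19 (edgeR adjusted p = 0.125; DESeq2 adjusted p = 0.0554), and -0.34 without low tension replicate 2. Ndufs4, an accessory subunit whose loss causes complex I deficiency and Leigh-like disease in mice, measured 29.6, 25.9 and 34.1 CPM at 50 kPa, against 35.7, 37.01 and 39.7 CPM at 2 kPa (log2 fold change -0.33 ± 0.12, edgeR adjusted p = 0.149). Those groups did not overlap either, but neither gene passed the test.

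Ndufa4l2 is a paralogue of Ndufa4 that hypoxia-inducible factor is known to induce. It was at 1.96, 2.06 and 0.579 CPM at 50 kPa and 1.50, 0.288 and 1.14 CPM at 2 kPa. The groups overlapped (0.65 ± 0.69, edgeR adjusted p = 0.554), and the spread within each group was larger than the difference. Per kb of annotated exon, averaged over all 6 libraries, Ndufa4l2 (1.15 CPM per kb), Ndufs5 (1.59) and Ndufb2 (2.18) were the lowest complex I genes. Ndufa1, a small membrane subunit, was the highest at 142 CPM per kb. The authors' handling of reads that match several loci is not stated, and the exons assumed are those of GENCODE vM21, so levels between genes are approximate.

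Complexes II and III held no gene past the test. The 4 succinate dehydrogenase genes had small positive log2 fold changes of 0.05 to 0.15, and none had an unadjusted p under 0.05. Sdha, the flavoprotein that oxidises succinate, was at 188, 189 and 202 CPM at 50 kPa and 179.7, 191 and 183 CPM at 2 kPa. Sdhd, a membrane anchor subunit, was at 136, 131 and 134 CPM at 50 kPa, against 132, 128 and 101 CPM at 2 kPa, where replicate 3 was the lowest library. Sdhb, the iron-sulphur subunit, and Sdhc, the other anchor, had fold changes of 0.05 ± 0.11 and 0.10 ± 0.10. With total counts as the scaling 3 of the 4 were negative, beside 8802 of all 13155 genes.

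The 8 complex III genes lay between -0.11 and 0.11, the narrowest range of the 5 complexes after complex II. Uqcrfs1, the Rieske iron-sulphur protein, averaged 93.1 ± 2.09 CPM at 50 kPa, against 90.4 ± 5.08 CPM at 2 kPa (SD, n = 3 each). Uqcrc1 and Uqcrc2, the core proteins, had fold changes of -0.02 ± 0.08 and 0.05 ± 0.08. Uqcrh, the hinge protein that contacts cytochrome c1, was at 118, 114 and 107 CPM at 50 kPa and 126, 116 and 103 CPM at 2 kPa. The extremes were the small subunits Uqcr11 (0.11 ± 0.15) and Uqcrq (-0.11 ± 0.11). None of the 8 had an unadjusted p under 0.05 by edgeR, and DESeq2 called 0.

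Complex IV held both called genes and the widest spread of fold changes, from -1.55 to 2.23. The genes of the ubiquitous isoforms had fold changes near 0. Cox4i1, the regulatory subunit that binds ATP, was at 352, 344 and 292 CPM at 50 kPa and 358, 292 and 295 CPM at 2 kPa, and its log2 fold change was 0.06 ± 0.14. Cox6a1 and Cox6b1 were at 0.00 ± 0.10 and 0.00 ± 0.11. Cox5b, the zinc-binding subunit, was lower in all 3 stiff cultures, at 75.9, 70.3 and 78.4 CPM, against 90.3, 88.3 and 83.3 CPM in the soft ones. Its change of -0.22 ± 0.08 had an edgeR adjusted p of 0.156 and was not called.

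Cox7a2l encodes a relative of the Cox7a2 subunit that joins complex III to complex IV in respiratory supercomplexes, and C57BL/6 mice are known to carry a shortened form of the protein. It lies on chromosome 17, 83501918 to 83517330, minus strand of GRCm38. The gene rose to 252, 243 and 238 CPM at 50 kPa, against 179.6, 156 and 157 CPM at 2 kPa. The lowest stiff culture was above the highest soft one, and the 3 stiff cultures were close to each other. The log2 fold change was 0.57 ± 0.10, a 1.49-fold rise (edgeR adjusted p = 0.046; DESeq2 adjusted p = 1.44e-06). Its paralogue Cox7a2 measured 75.3, 65.9 and 73.2 CPM at 50 kPa and 76.7, 78.0 and 75.0 CPM at 2 kPa (log2 fold change -0.10 ± 0.09, edgeR adjusted p = 0.470). The call was lost without high tension replicate 1, 2 or 3 or without low tension replicate 2 or 3 (edgeR adjusted p = 0.22, 0.215, 0.0676, 0.114 and 0.0646), where the fold change stayed between 0.54 and 0.60. It was also lost with upper-quartile or total-count scaling and without a filter or with one of at least 5 CPM (edgeR adjusted p = 0.0525, 0.118, 0.0546 and 0.0653). Summing high tension replicates 1 and 2, a setting chosen after seeing the data, lost the call too (edgeR adjusted p = 0.2).

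Cox6a2 is the heart and muscle isoform of the Cox6a subunit, and in mice it is also known from plasmacytoid dendritic cells. It lies on chromosome 7, 128205435 to 128206387, minus strand. The gene rose to 1.12, 0.985 and 1.01 CPM at 50 kPa, against 0.336, 0.168 and 0.150 CPM at 2 kPa, from 36, 33 and 35 reads against 13, 7 and 5. The groups did not overlap, and the level stayed near the limit of what these libraries count well. The log2 fold change was 2.23 ± 0.35 (edgeR adjusted p = 0.0381; DESeq2 adjusted p = 0.000105). Its ubiquitous counterpart Cox6a1 measured 119, 106 and 106 CPM at 50 kPa and 118, 111 and 102 CPM at 2 kPa. In the annotation 70 bp of Cox6a2 exon overlap the opposite-strand gene Itgad, and Itgad reached no more than 0.218 CPM in any library. Without the strand setting of the counting, reads of such a pair cannot be told apart, which also holds for Atp5f1 with Wdr77 and Ndufa4l2 with Shmt2. Of 6 plasmacytoid dendritic cell markers 5 were tested, with 0 called higher and 1 lower, and their sums were 415 to 1055 CPM at 50 kPa and 612 to 1281 CPM at 2 kPa, mostly from Bst2 and Irf8. Of the 5 tested, 4 had negative fold changes and 1 a positive one, with a median of -0.34. The positive one was Siglech, a more specific marker of these cells. It was at 0.684, 0.716 and 0.260 CPM at 50 kPa and 0.440, 0.072 and 0.120 CPM at 2 kPa. Its groups overlapped (1.37 ± 0.71, edgeR adjusted p = 0.257). The part of these cells in the Cox6a2 result was not tested. The call was lost without high tension replicate 1, 2 or 3 or without low tension replicate 2 or 3 (edgeR adjusted p = 0.190, 0.178, 0.0563, 0.109 and 0.0635). Summing high tension replicates 1 and 2, chosen after seeing the data, also lost the call (edgeR adjusted p = 0.167). A filter of at least 5 CPM removes the gene.

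Other isoforms of low level had values in both directions and did not pass the edgeR test. Cox4i2, the isoform known from lung and from hypoxic cells, was at 0.529, 0.328 and 0.260 CPM at 50 kPa, against 1.22, 1.37 and 0.691 CPM at 2 kPa. All 3 stiff cultures were below all soft ones (-1.55 ± 0.40, edgeR adjusted p = 0.0799; DESeq2 adjusted p = 0.0157). Cox6b2, known from testis, was at 5.57, 5.73 and 1.48 CPM at 50 kPa, against 2.10, 0.624 and 0.871 CPM at 2 kPa. High tension replicate 3 fell among the soft cultures, so the groups overlapped (1.83 ± 0.66, edgeR adjusted p = 0.143; DESeq2 adjusted p = 0.0339). Cox7a1, a muscle isoform, averaged 3.61 ± 1.38 CPM at 50 kPa and 2.53 ± 1.10 CPM at 2 kPa (SD, n = 3 each), with overlapping groups.

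**Figure D2:**
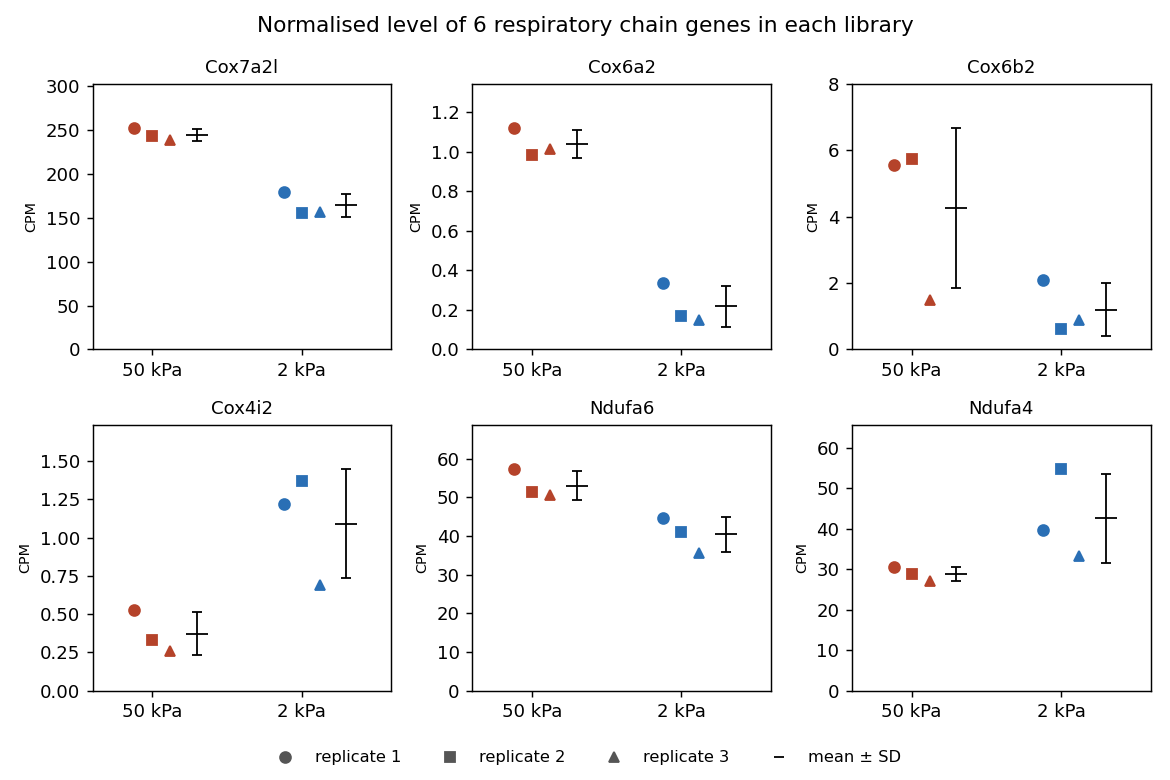
Normalised CPM of 6 respiratory chain genes in each of the 3 libraries at 50 kPa and the 3 at 2 kPa, with mean and SD beside the points. Cox7a2l, Cox6a2 and Ndufa6 do not overlap and are higher at 50 kPa, Cox4i2 and Ndufa4 do not overlap and are lower, and Cox6b2 overlaps through replicate 3 of 50 kPa.

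ATP synthase genes gave 0 calls by edgeR and 0 by DESeq2 among 17, and 3 had an unadjusted p under 0.05. Atp5b, which encodes the catalytic beta subunit, measured 483, 458 and 494 CPM at 50 kPa and 479.8, 531 and 524 CPM at 2 kPa, and Atp5a1, its alpha partner, had a log2 fold change of 0.02 ± 0.10. Atp5c1, the gamma subunit of the rotating stalk, was at 155, 135 and 136 CPM at 50 kPa and 125, 115 and 121 CPM at 2 kPa. Every stiff culture was above every soft one (0.24 ± 0.10, edgeR adjusted p = 0.173). Atp5f1, a subunit of the peripheral stalk, was at 151, 143 and 151 CPM at 50 kPa and 195, 205 and 159 CPM at 2 kPa. Every stiff culture was below every soft one (-0.33 ± 0.12, edgeR adjusted p = 0.15). Atp5k, a membrane subunit of the dimer interface, was at 44.1, 42.5 and 42.3 CPM at 50 kPa and 56.8, 50.9 and 45.4 CPM at 2 kPa (log2 fold change -0.25 ± 0.10, edgeR adjusted p = 0.179). Atp5s had the most positive value, at 4.98, 4.57 and 4.57 CPM at 50 kPa and 4.04, 3.69 and 2.52 CPM at 2 kPa (log2 fold change 0.46 ± 0.21, edgeR adjusted p = 0.219). The groups did not overlap in 6 of the 17, 3 higher (Atp5c1, Atp5s and Atp5sl) and 3 lower (Atp5f1, Atp5j and Atp5k). Of these, Atp5s and Atp5sl are the accessory or assembly factors that the symbol rule takes in. This share of 35.3% was close to the 34.1% of all genes.

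Summed over genes, the respiratory chain took a similar share of the library on both substrates. The 84 genes together summed to 7032, 6596 and 6569 CPM at 50 kPa and 7086, 6739 and 6188 CPM at 2 kPa, which is 0.673% and 0.667% of the scaled library on average. Complex II was the only complex whose sums did not overlap, at 487, 472 and 499.7 CPM at 50 kPa and 469, 465 and 431 CPM at 2 kPa. That separation was absent with total counts as the scaling, where the complex II ratio was 0.97. Ratios of mean sums, 50 kPa over 2 kPa, were 0.993 for complex I, 1.07 for complex II, 1.01 for complex III, 1.05 for complex IV and 0.979 for complex V. Cox7a2l alone accounted for 244 ± 7.25 CPM of the 1627 ± 87.3 CPM of complex IV at 50 kPa, and for 164 ± 13.4 CPM of 1544 ± 122 CPM at 2 kPa (SD, n = 3 each).

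**Figure D3:**
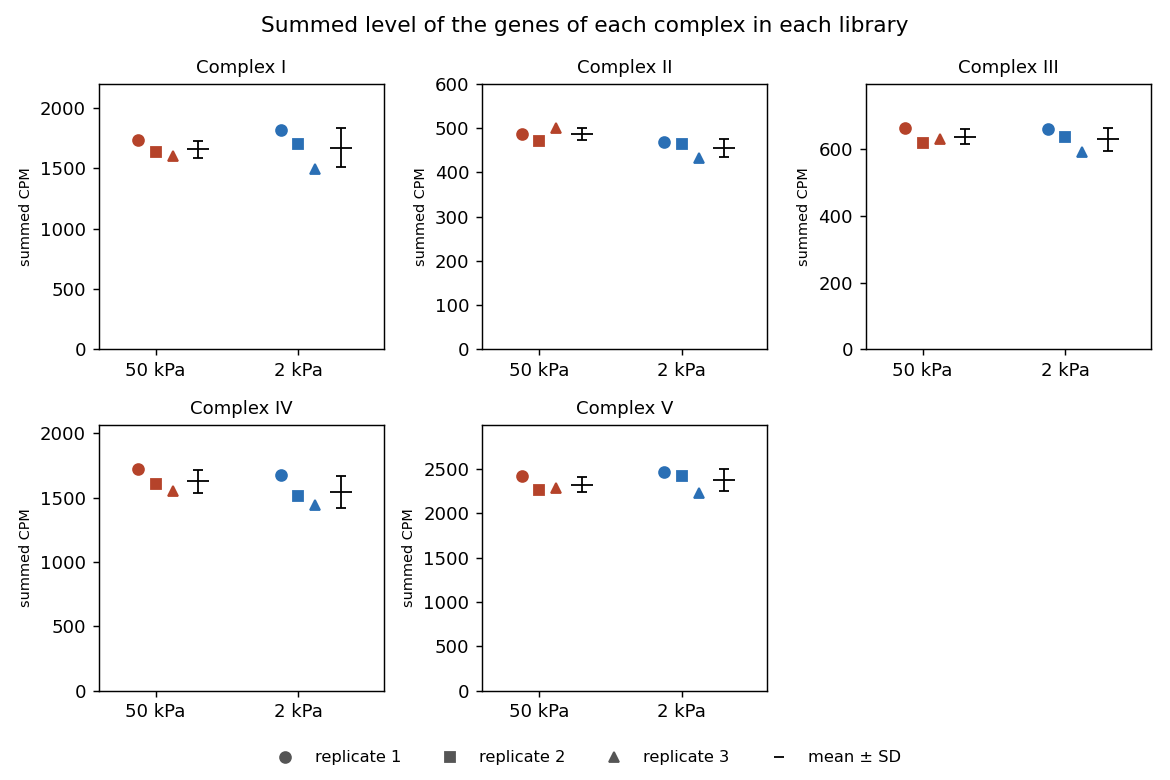
Summed CPM of the genes of each complex in each library, with mean and SD over 3 libraries at 50 kPa and 3 at 2 kPa. The groups overlap for complexes I, III, IV and V, and for complex II the lowest 50 kPa library (472 CPM) is just above the highest 2 kPa library (469 CPM).

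The subunit genes also differed together between libraries of the same substrate. The mean deviation of log2 CPM of the 74 genes of at least 10 CPM from their mean over all libraries was 0.07, -0.03 and -0.03 in the stiff cultures and 0.11, 0.03 and -0.14 in the soft ones. Low tension replicate 3 was the lowest library for 40 of the 74 genes, and replicates 1 were the highest, for 28 genes that of 50 kPa and for 29 that of 2 kPa. The range among the soft cultures was wider than that among the stiff ones. These deviations share the scaling factor of each library.

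Ratios between related subunits within a library do not depend on the scaling factor, apart from the pseudocount of 0.1 CPM. Of 8 such pairs, 5 had groups that did not overlap, beside 34.1% of all genes taken singly. Ratios of other genes were not computed, so this count has no background of its own. The pairs were chosen with earlier results known, and both Atp5g pairs share Atp5g3. Each of the 5 pairs had a 2-sided exact permutation p of 0.1, the smallest that 3 against 3 allows. Their adjusted p by that test was 0.16 over the 8 pairs, so none could pass the threshold. The log2 ratio of Cox7a2l to Cox7a2 was 1.78 ± 0.09 at 50 kPa and 1.10 ± 0.12 at 2 kPa (SD, n = 3 each). That of Cox6a2 to Cox6a1 was -6.60 ± 0.03 at 50 kPa and -8.48 ± 0.35 at 2 kPa, and that of Cox4i2 to Cox4i1 was -9.48 ± 0.30 at 50 kPa and -8.09 ± 0.45 at 2 kPa. Atp5g1, Atp5g2 and Atp5g3 encode the same mature c-ring protein behind different import sequences, and reads from their shared coding part could have been split between them. The ratio of Atp5g2 to Atp5g3 was -0.14, -0.15 and -0.32 in the stiff cultures, against -0.57, -0.86 and -0.65 in the soft ones, a difference of 0.49. Neither gene was called alone, at 0.26 ± 0.14 for Atp5g2 and -0.23 ± 0.12 for Atp5g3. The ratio of Atp5g1 to Atp5g3 differed by 0.07 only.

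**Figure D4:**
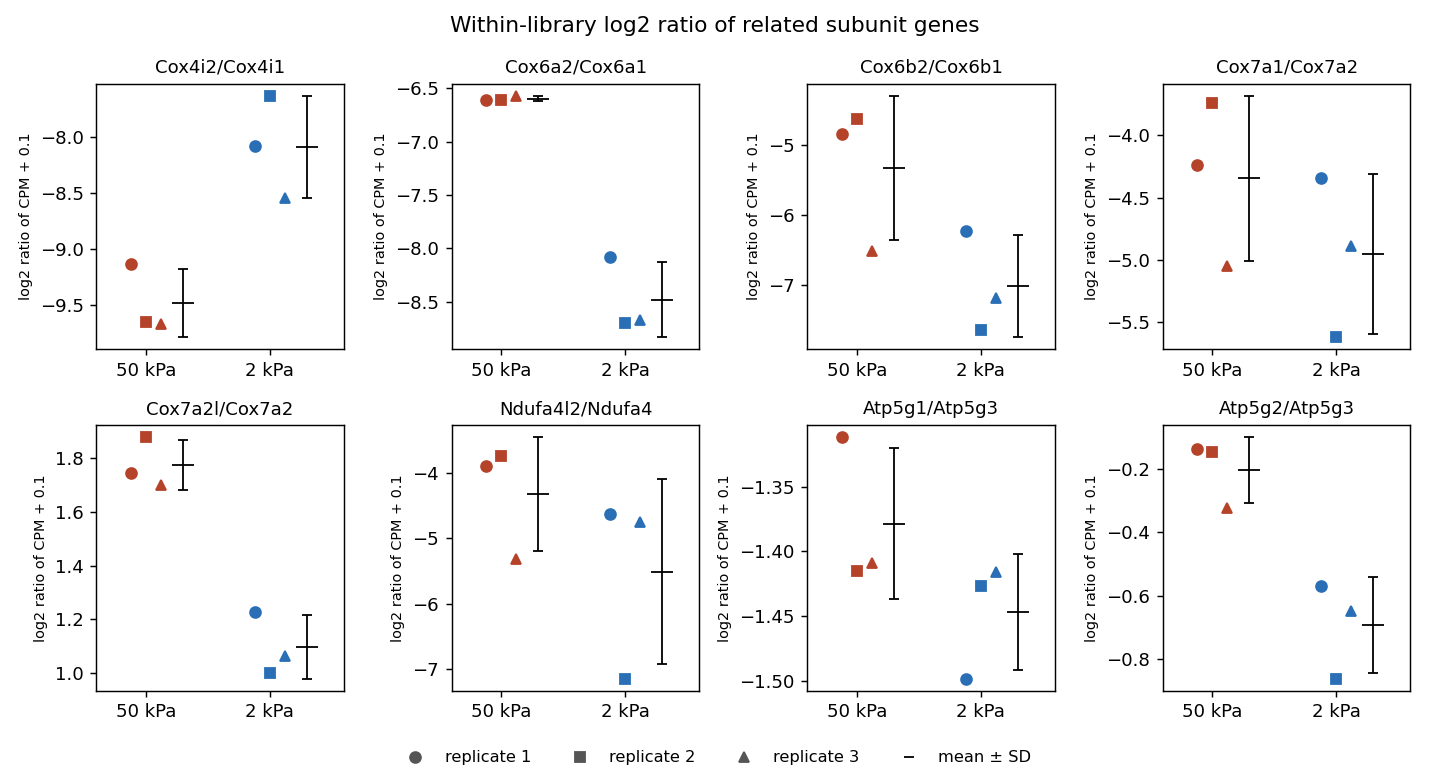
Log2 ratio of normalised CPM (plus 0.1) of 8 pairs of related subunit genes within each library, with mean and SD over the 3 libraries at 50 kPa and the 3 at 2 kPa. Cox7a2l over Cox7a2, Cox6a2 over Cox6a1 and Atp5g2 over Atp5g3 are higher in every 50 kPa library, as is Atp5g1 over Atp5g3 by 0.07, and Cox4i2 over Cox4i1 is lower.

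Nuclear respiratory factor 1 (NRF1) is known to bind the promoters of many respiratory chain genes, so promoter windows were searched for its letters, GCGCA and GCGC with any 1 base between them. RefSeq windows on GRCm38.p6, from 250 bases before to 50 after a transcript start, were at hand for 66 of the 84 genes, 71 windows in all. On either strand the letters occurred in 18 of the 71 windows (25.4%), beside 4.59% of all 32817 windows of the same length. The letters CCGGAAGT, of the ETS family to which GABPA belongs, occurred in 7.04% beside 3.89%, and ACGTG, the core read by hypoxia-inducible factors, in 23.9% beside 19.6%. The 17 genes with the NRF1 letters had a median log2 fold change of -0.02 with 0 called by edgeR and 1 by DESeq2, Ndufa6, and 3 with an unadjusted p under 0.05. The 47 tested genes without them had a median of 0.03, with 1 called by edgeR, Cox7a2l, 2 by DESeq2 and 5 with an unadjusted p under 0.05. Over all genes tested, edgeR called 3.45%, DESeq2 called 18.0% and 27.8% had an unadjusted edgeR p under 0.05. Cox6a2, the other gene called by edgeR, and Cox4i2 had no such window and are in neither group. The 250 bases before the start are shown for Cox7a2l, Cox6a1 and Sdha. Cox6a1 and Sdha had fold changes near 0 and hold the NRF1 letters, which are in capitals. All 3 lie on the minus strand, at chr17:83514334-83514583, chr5:115348959-115349208 and chr13:74350241-74350490. The RefSeq start of Cox7a2l lies inside the longer GENCODE span of the gene.
Cox7a2l: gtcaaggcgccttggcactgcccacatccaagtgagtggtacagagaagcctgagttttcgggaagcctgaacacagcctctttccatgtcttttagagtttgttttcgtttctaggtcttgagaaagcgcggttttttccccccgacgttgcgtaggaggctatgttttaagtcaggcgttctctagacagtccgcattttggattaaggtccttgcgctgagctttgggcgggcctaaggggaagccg
Cox6a1: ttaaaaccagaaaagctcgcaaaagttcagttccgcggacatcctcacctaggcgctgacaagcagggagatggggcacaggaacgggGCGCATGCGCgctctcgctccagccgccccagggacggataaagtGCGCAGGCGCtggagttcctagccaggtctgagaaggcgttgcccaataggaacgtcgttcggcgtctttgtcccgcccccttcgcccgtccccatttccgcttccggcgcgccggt
Sdha: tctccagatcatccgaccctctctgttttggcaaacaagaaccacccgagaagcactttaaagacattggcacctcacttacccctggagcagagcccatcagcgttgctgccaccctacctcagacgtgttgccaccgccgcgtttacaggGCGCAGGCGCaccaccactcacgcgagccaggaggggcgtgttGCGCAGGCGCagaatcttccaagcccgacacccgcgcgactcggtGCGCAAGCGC
The Cox7a2l window holds none of the 3 sets of letters, the Cox6a1 window holds the NRF1 letters at 2 places and the Sdha window at 3.

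Among the other genes of the pathway edgeR called 1. Surf1, an assembly factor of complex IV, rose to 35.8 ± 1.97 CPM at 50 kPa, against 26.0 ± 1.13 CPM at 2 kPa (SD, n = 3 each; 0.47 ± 0.09, edgeR adjusted p = 0.0481). That call was lost with any 1 library left out (edgeR adjusted p = 0.056 to 0.217), with upper-quartile or total-count scaling (0.0633 and 0.208) and with no filter or one of at least 5 CPM (0.0579 and 0.0653), while the fold change stayed positive. Summing high tension replicates 1 and 2 lost it too (edgeR adjusted p = 0.19). Of 24 tested assembly factors of complexes IV and V, with a median of -0.06, edgeR called Surf1 alone, DESeq2 called 4 and 4 had an unadjusted p under 0.05. Over all genes tested the shares were 3.45% by edgeR, 18.0% by DESeq2 and 27.8% at an unadjusted edgeR p under 0.05. The counts of the lists that follow stand beside the same shares. Cox17, the copper chaperone of the same enzyme, was at 53.1 ± 6.24 CPM and 72.2 ± 6.73 CPM in the same order (-0.44 ± 0.12, edgeR adjusted p = 0.0897; DESeq2 adjusted p = 0.026). No assembly factor of complex I (13 tested) or of complexes II and III (7 tested) was called by edgeR. The unadjusted p was under 0.05 for 2 and 1 of them, and DESeq2 calls numbered 0 and 1. The 16 citric acid cycle and pyruvate dehydrogenase genes gave 0 edgeR calls and 1 DESeq2 call, had 2 members at an unadjusted p under 0.05, and showed a median of 0.01. Of the 6 measured subunits and partners outside the symbol rule 0 were called by either tool and 0 had an unadjusted p under 0.05. Cycs, somatic cytochrome c, was at 75.6 ± 16.0 CPM at 50 kPa and 102 ± 15.3 CPM at 2 kPa (log2 fold change -0.43 ± 0.19, edgeR adjusted p = 0.198).

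Regulators of mitochondrial biogenesis gave 0 calls among 10 tested by edgeR and 2 by DESeq2, with 2 at an unadjusted p under 0.05. Over all genes tested, edgeR called 3.45%, DESeq2 called 18.0% and 27.8% had an unadjusted edgeR p under 0.05. Ppargc1b, a coactivator of respiratory genes, was at 7.90, 7.58 and 8.54 CPM at 50 kPa and 6.06, 5.01 and 5.29 CPM at 2 kPa. Tfam, which packages mitochondrial DNA and takes part in its transcription, was at 21.7, 20.1 and 19.9 CPM at 50 kPa and 24.6, 25.4 and 26.0 CPM at 2 kPa. The groups of neither gene overlapped, Ppargc1b being higher (0.55 ± 0.14, edgeR adjusted p = 0.0783) and Tfam lower (-0.30 ± 0.09, edgeR adjusted p = 0.0946) in the stiff cultures. Nrf1, Gabpa and Esrra had values of -0.22 ± 0.13, -0.04 ± 0.08 and -0.07 ± 0.10. Mitochondrial ribosomal protein genes, whose products belong to the ribosome that makes the mitochondrially encoded subunits, had 0 calls among 77 by edgeR and 4 by DESeq2, with 10 (13.0%) at an unadjusted p under 0.05, beside 27.8% of all genes. Their median was -0.13 and 67 of the 77 were negative, beside 6994 of all 13155 genes. With total counts as the scaling 75 were negative, beside 8802 of all genes. Mrpl54 had the smallest p of them (-0.62 ± 0.12, edgeR adjusted p = 0.0518). Among 8 carriers and channels of the mitochondrial membranes 0 were called by edgeR, 3 had an unadjusted p under 0.05 and DESeq2 called 2. Slc25a5, an ADP/ATP carrier, was at 289 ± 18.1 CPM at 50 kPa and 226 ± 10.3 CPM at 2 kPa (log2 fold change 0.36 ± 0.10, edgeR adjusted p = 0.0995).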

How the data were processed

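PolyA RNA-seq libraries of marrow cultures, 3 libraries at 50 kPa and 3 at 2 kPa, were analysed. The authors deposited 1 table of raw read counts by gene symbol for each library. The submitters' processing notes name TopHat2 2.0.11, HTSeq 0.6.1p2, FastQC 0.11.2, edgeR (3.8.6 and 3.16.5) and, as builds, hg19 and mm10, without role or order. The sources used here do not give the annotation, the strand setting or the treatment of multiply matching reads. Mitochondrially encoded genes were not analysed here.

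Stiff and soft cultures were compared with edgeR 4.0.16 in R 4.3.3 (filterByExpr with minimum count 10 and minimum total 15, TMM factors, glmQLFit and glmQLFTest with stiffness as the term) over all 13155 genes that passed, with Benjamini-Hochberg adjustment over all of them and a threshold of 0.05. A standard error is the size of the log2 fold change divided by the square root of the F value. The biological coefficient of variation (common value) was 24.6%. Depth was 33.83 M to 36.27 M counts, so genes under 1 CPM rest on few reads. DESeq2 1.42.0, limma-voom (limma 3.58.1), other scalings and filters, robust fits, replicate number as a block and leaving out each library were alternatives, and a sum of replicates 1 and 2 of the stiff cultures was added after seeing the data. Ratios of related genes used log2 of CPM plus 0.1 and an exact permutation test. The pipeline was tested on simulated data. Plots used Python 3.11.15 with matplotlib 3.10.9.

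The members, the gene lists and the tests were chosen with earlier results of these data known. Genes named are those with an unadjusted p under 0.05 or a DESeq2 call, the 2 most abundant and the 2 extreme fold changes of each complex, core subunits, tissue isoforms and paired paralogues, and up to 4 genes of the smallest p of each other list, some of them given only within ranges and some not reported here. Symbols were matched to GENCODE vM21 (GRCm38) for 83 of 84 genes and to RefSeq promoters (GRCm38.p6) for 66. The annotation places exons of 25 members over exons of a gene on the opposite strand.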

Additional observations from a re-analysis of the deposited data

How the results depend on the processing

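Replicate numbers were not taken as pairs, since the labels do not say that they pair libraries. Same-numbered libraries of both substrates correlated at 0.542, -0.106 and 0.488 in their deviations, which does not decide whether they are pairs. With the replicate number as a block edgeR called 776 genes, 522 of them lower, and the same 2 respiratory chain genes, Cox7a2l (adjusted p = 0.045) and Cox6a2 (0.0438), while the call of Surf1 was lost (0.0537). The settings for Surf1 were added after seeing the data. DESeq2 called 1121 genes higher and 1251 lower, with 4 respiratory chain genes higher and 1 lower. Over all genes, total counts gave 77 higher, a filter of at least 5 CPM gave 20 higher and 16 lower, and summing high tension replicates 1 and 2, which was chosen after seeing the data, gave 0 and 0 with 2138 genes at an unadjusted p under 0.05. Leaving out 1 library gave 0 to 255 genes higher and 0 to 256 lower. Respiratory chain genes called higher numbered 1 with upper-quartile scaling, 1 with total counts and 1 with no filter, 0 with the 5 CPM filter, 0 with the summed replicates and 0 to 2 with 1 library left out. Where 0 were called, 4 to 16 had an unadjusted p under 0.05. With total counts the median log2 fold change was -0.11 for all respiratory chain genes and -0.16 for all genes. By complex it was -0.14 for complex I, -0.054 for complex II, -0.088 for complex III, -0.14 for complex IV and -0.14 for complex V. With a pseudocount of 1 CPM the ratio differences were -0.66 for Cox4i2 to Cox4i1 and 0.75 for Cox6a2 to Cox6a1. Cox7a2l and Cox6a2 were higher at 50 kPa in every setting that tested them. Genes under 1 CPM, Cox6a2 among them, are limited by depth.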

Other observations

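AA467197, also known as Nmes1, encodes a protein related to Ndufa4 and falls outside the symbol rule. It was chosen after its values were seen. It measured 296, 264 and 660.3 CPM at 50 kPa and 414, 371 and 1220 CPM at 2 kPa, so that replicate 3 was the highest library on both substrates. The groups overlapped (log2 fold change -0.72 ± 0.58, edgeR adjusted p = 0.443).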
